A study of Mus musculus with 15 samples.

Results

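Vimentin (VIM), the calcium-binding proteins S100A4 and S100A6, and 7 genes of the contractile apparatus (MYL9, TAGLN, ACTA2, TPM1, TPM2, CNN1 and CALD1) were followed across tumors with and without an shRNA against B7-H3. These 10 genes, of 24891 in the table, were taken by their symbols, which the table writes in capitals, and all 10 were listed. The set was chosen on the lower levels of VIM, S100A4 and MYL9 in sorted knockdown cells. The values of these genes in sorted knockdown cells against sorted sh-NC cells are therefore given as a description, without a test. The bulk tumors are other libraries and were tested, as was the difference between both shRNAs in sorted cells, a contrast that shares the knockdown libraries with the selection.

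RNA came from subcutaneous tumors of 105K cells, a Tsc2-deficient line that was derived from a Tsc2+/- mouse with a renal tumor, grown in the flanks of wild-type C57BL/6J male mice that were 6 weeks old at injection. The cells stably carried a non-targeting shRNA (sh-NC) or 1 of 2 shRNAs against B7-H3, the product of Cd276, as transduced pools and not as single clones. Each of 5 groups had 3 libraries, 15 in all. Whole tumors (bulk) carried the control or sh-B7-H3 (1), and tumor cells enriched by sorting (sorted) carried the control or either of the knockdown constructs, sh-B7-H3 (1) and (2). Tsc2 is lost in all of them, bulk tumors hold every host cell, and sorted cells are what remained after tumors were dissociated and non-tumor cells were depleted with magnetic beads.

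Vimentin is the intermediate filament protein of mesenchymal cells, and S100A4, also called fibroblast-specific protein, binds non-muscle myosin and is widely used as a marker of mesenchymal change. Smooth muscle actin (ACTA2) slides along myosin II, whose regulatory light chain is MYL9, while tropomyosins (TPM1, TPM2) run along the actin filament and caldesmon (CALD1), calponin (CNN1) and transgelin (TAGLN) bind it. Fibroblasts, pericytes and smooth muscle of the host make most of these proteins too, as can carcinoma cells with mesenchymal features. Many of the contractile genes are known targets of serum response factor, which binds the CArG box.

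Levels are FPKM, a fragment count divided by gene length and sequencing depth, scaled here by 1 median-ratio factor per library (scaled FPKM). Differences are on the log2(scaled FPKM + 1) scale with their standard error (SE), and a call is a limma p, adjusted by the Benjamini-Hochberg method over all genes tested, below 0.05. A gene entered a comparison if 3 or more of its libraries reached 1 scaled FPKM, which 9 of the 10 genes did in every comparison. CNN1 did not pass in any. MYL9, ACTA2 and the tropomyosins have close paralogs, and how reads shared between paralogs were counted is not given in the sources used here.

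The mRNA of the targeted gene, CD276, was not lower in every group labelled as knockdown. In sorted cells labelled sh-B7-H3 (1) it was at 7.29, 14 and 11.5 scaled FPKM, below the 34.0, 20.0 and 17.3 of sorted sh-NC cells. In sorted cells labelled sh-B7-H3 (2) it was at 23.3, 25.4 and 25.7, which overlaps sh-NC. In bulk tumors labelled sh-B7-H3 (1) it was at 22.3, 17.8 and 24.4, against 20.8, 23.2 and 23.5 in sh-NC tumors. Bulk values include host cells, and the paper says that vessels and fibroblasts of tumors can have raised B7-H3. The part of host cells in bulk CD276 was not tested. The mRNA was thus lower in 1 of the 3 groups labelled as knockdown, and every direction below is drawn between libraries as labelled.

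Relative depth, read from the lowest FPKM steps, ran from 0.468 to 1.00 of the deepest library, and read totals are not known, so no counting interval is given. MIR6236 took 6.01 to 79.7% of summed FPKM, with the highest shares in bulk sh-NC replicate 3 (79.7%) and bulk sh-B7-H3 (1) replicate 2 (74.4%). The latter library had correlations of log2 values of 0.923 and 0.889 with the others of its group, which had 0.967 with each other. The sorted library labelled sh-B7-H3 (2) replicate 1 stood apart in host-cell genes. Its summed level of 10 leukocyte markers was 261 scaled FPKM against 19.4 and 21.4 in the other libraries of its group, and that of 10 endothelial markers was 25.1 against 0.844 and 0.804. Endothelial markers summed to at most 0.844 in the other 8 sorted libraries. Epithelial markers differed by group, with sums of 999 to 1139 scaled FPKM in bulk sh-NC tumors and 1398 to 1659 in knockdown tumors. Their sums were 1144 to 1301 in sorted sh-NC cells, 2176 to 2594 with sh-B7-H3 (1) and 2343 to 2625 with sh-B7-H3 (2). Of 10 epithelial markers, 6 rose in bulk tumors, 8 in sorted cells with sh-B7-H3 (1) and 9 with sh-B7-H3 (2), or 7 without the library that stood apart, and 0 fell in any of these comparisons. Their part in the differences of VIM, S100A4 and the other genes was not tested. Tests between the shRNAs and related-gene counts that change without the library that stood apart are given with and without it.

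Promoters of the 3 genes on which the set was chosen are shown because their levels were lower together in sorted knockdown cells. Windows are from RefSeq on GRCm38.p6, the assembly of mm10, and run from 250 bases before to 50 bases after the start site. Capitals mark TATAAA on either strand or the CArG box on either strand, and no matches overlapped.

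VIM, chr2:13574061-13574360, + strand: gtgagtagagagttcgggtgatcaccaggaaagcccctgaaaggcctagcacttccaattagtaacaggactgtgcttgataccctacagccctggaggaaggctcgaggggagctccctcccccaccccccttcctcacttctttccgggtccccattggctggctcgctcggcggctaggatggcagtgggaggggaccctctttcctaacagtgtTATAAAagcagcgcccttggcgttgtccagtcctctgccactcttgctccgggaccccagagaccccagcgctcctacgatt

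S100A4, chr3:90603520-90603819, + strand: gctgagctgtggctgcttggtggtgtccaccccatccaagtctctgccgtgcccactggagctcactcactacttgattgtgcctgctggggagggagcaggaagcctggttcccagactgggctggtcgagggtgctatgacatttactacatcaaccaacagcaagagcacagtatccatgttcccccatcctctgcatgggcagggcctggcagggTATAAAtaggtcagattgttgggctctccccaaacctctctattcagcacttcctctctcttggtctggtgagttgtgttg

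MYL9, chr2:156775214-156775513, + strand: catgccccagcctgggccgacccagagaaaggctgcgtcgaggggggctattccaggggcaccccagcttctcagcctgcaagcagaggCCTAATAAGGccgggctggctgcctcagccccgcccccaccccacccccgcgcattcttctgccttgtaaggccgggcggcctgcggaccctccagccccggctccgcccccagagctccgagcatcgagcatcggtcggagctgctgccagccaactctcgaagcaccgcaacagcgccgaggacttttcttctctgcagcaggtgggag

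TATAAA began 32 bases before the start of VIM and 31 bases before that of S100A4. The CArG box began 161 bases before the start site of the MYL9 window, a site downstream of the gene start given below. Of 32851 windows of this length, 13.6% held TATAAA and 1.63% the CArG box. Windows were at hand for 9 of the 10 genes, all but TAGLN, and numbered 10 because CALD1 has 2. TATAAA was in 3 of these 10, the third at a start of CALD1 and 186 bases before it, and the CArG box was in 1. A match describes these letters only, and no match says nothing of the factor.

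In bulk tumors, VIM, S100A4 and S100A6 fell and TAGLN and TPM2 rose where the label was sh-B7-H3 (1), compared with sh-NC tumors. VIM and S100A4 fell to 42.1% and 23.8% of sh-NC on the log2(scaled FPKM + 1) scale. MYL9, ACTA2, TPM1 and CALD1 did not pass the test. Of the 9 genes tested, 3 were called lower, beside 8.52% of all 11800 genes, and 2 were called higher, beside 12.8% of all genes. Across all genes the median log2 difference was 0.02. In bulk tissue, fewer cells of a type and less RNA per cell cannot be told apart. The methods describe the 3 samples of a group as biological, and p-values measure the spread between them. Separate transductions of the same shRNA are not described, so an shRNA and its cell pool cannot be told apart.

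VIM (chr2:13574311-13582826) was at 1075, 1226 and 1282 scaled FPKM in bulk sh-NC tumors and at 413, 591 and 516 in bulk sh-B7-H3 (1) tumors. The highest knockdown value was below the lowest sh-NC value. The log2 difference was -1.25 (SE 0.16, n = 3 and 3, limma adjusted p = 0.00504).

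S100A4 (chr3:90603770-90606045) was at 285, 314 and 485 scaled FPKM in bulk sh-NC tumors and at 82.6, 110 and 62.6 in bulk sh-B7-H3 (1) tumors. Groups did not overlap, and the log2 difference was -2.07 (SE 0.26, n = 3 and 3, limma adjusted p = 0.00458). The calls of VIM and S100A4 held in all 13 alternatives run, with a limma adjusted p of at most 0.0273 for VIM and 0.0279 for S100A4. The epithelial cell adhesion molecule EPCAM rose in the same tumors, by 2.65 on the log2 scale (limma adjusted p = 0.00457), beside the higher epithelial sums given above. VIM and S100A4 were lower while 10 fibroblast markers summed to 831, 674 and 411 scaled FPKM in knockdown tumors and to 147, 253 and 228 in sh-NC tumors. Of the 8 fibroblast markers tested, 5 rose and 1 fell. Leukocyte markers, from cells that also make S100A4 and vimentin, summed to 256, 285 and 357 in sh-NC tumors and to 375, 452 and 233 in knockdown tumors, with 0 of 10 called by limma and 0 at an unadjusted p below 0.05. Macrophage markers summed to 596 to 914 in sh-NC tumors and to 625 to 1127 in knockdown tumors, and of the 9 tested CD68 rose (0.65) and MSR1 fell (-1.27). T cell markers summed to 2.64 to 3.08 and to 6.71 to 22, and both of those tested, CD3E (1.75) and CD3G (1.74), rose. The part of these cells in VIM and S100A4 was not tested.

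S100A6, calcyclin, lies near S100A4 on the chromosome (chr3:90612894-90614414). It was at 1104, 1291 and 1369 scaled FPKM in bulk sh-NC tumors and at 686, 840 and 638 in knockdown tumors, with no overlap. The log2 difference was -0.80 (SE 0.16, n = 3 and 3, limma adjusted p = 0.0164). The call was lost with FPKM as deposited (limma adjusted p = 0.0750) and without sh-NC replicate 2 (0.0638), sh-NC replicate 3 (0.0614) or knockdown replicate 1 (0.0923).

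**Figure D1:**
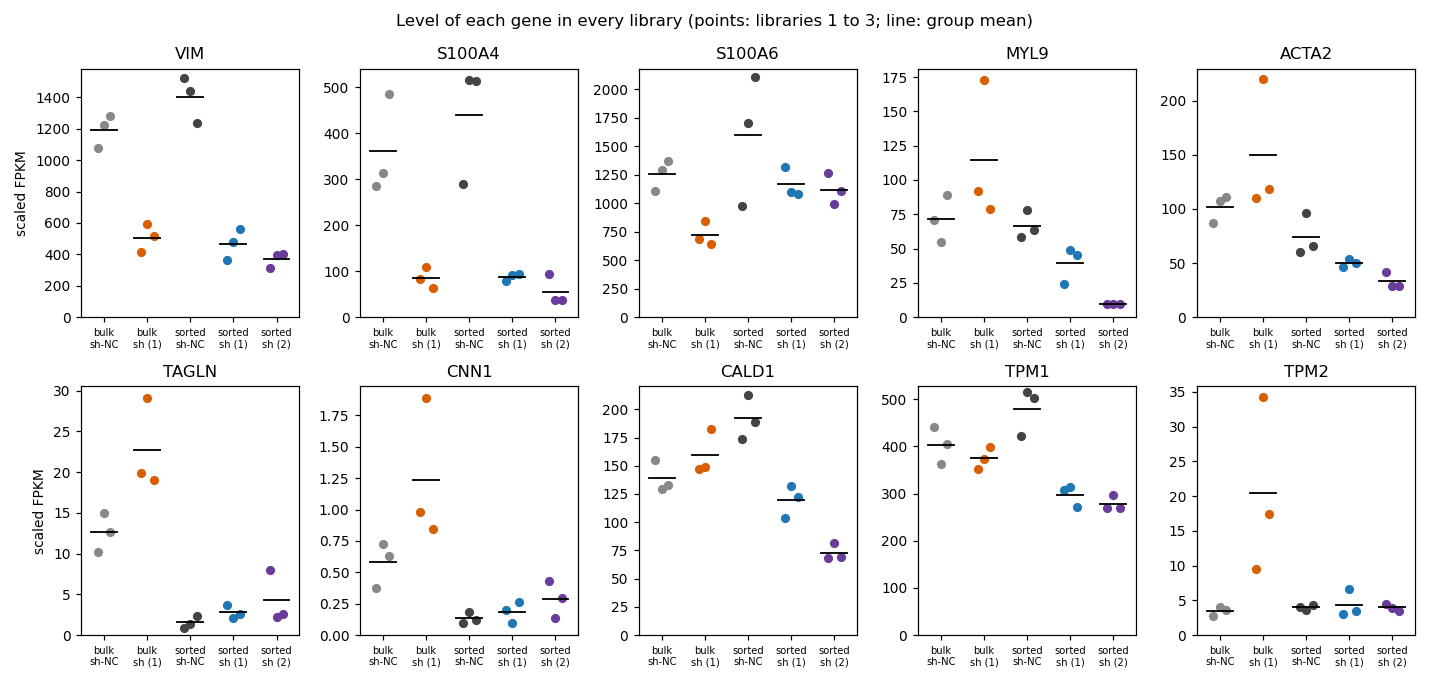
Scaled FPKM (y axis, linear from 0, a separate scale per gene) of the 10 genes in 15 libraries, grouped by material and shRNA, where sh (1) and sh (2) are the shRNAs against B7-H3. Points are libraries and lines are group means. VIM and S100A4 are low in all 3 knockdown groups, while TPM2 reaches 34.2 only in bulk tumors labelled sh-B7-H3 (1).

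Among the contractile genes, TPM2 (chr4:43513726-43523583), the beta-tropomyosin of skeletal and smooth muscle, had the largest difference in bulk tumors. It was at 2.79, 4.05 and 3.66 scaled FPKM in sh-NC tumors and at 9.57, 34.2 and 17.4 in knockdown tumors. The log2 difference was 2.09 (SE 0.40, n = 3 and 3, limma adjusted p = 0.0154). The call was lost without sh-NC replicate 1 (limma adjusted p = 0.0513) or sh-NC replicate 3 (0.0623). The summed level of 10 skeletal muscle markers was 42.5, 849 and 258 in the same knockdown tumors and 4.45, 25.1 and 6.68 in sh-NC tumors, so the knockdown tumors took the same order for TPM2 and for muscle markers. Of the 9 skeletal muscle markers tested, 6 rose and 0 fell. In sorted cells this sum was 39.7 to 122 with TPM2 at 3.06 to 6.66. The part of muscle tissue in the bulk value of TPM2 was not tested.

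TAGLN (chr9:45929628-45936058) was at 10.2, 15 and 12.7 scaled FPKM in bulk sh-NC tumors and at 19.9, 29.1 and 19 in knockdown tumors. The groups did not overlap, and the log2 difference was 0.78 (SE 0.20, n = 3 and 3, limma adjusted p = 0.0337). Its call held in 6 of the 13 alternatives. It was lost with FPKM as deposited (limma adjusted p = 0.106), with no filter (0.0657), with all groups fitted together (0.115), and without sh-NC replicate 1 (0.0861), 2 (0.0526) or 3 (0.106) or knockdown replicate 1 (0.0934). Pericyte and smooth muscle markers summed to 29.6, 38.5 and 40.8 in sh-NC tumors and to 51.0, 88.3 and 53.7 in knockdown tumors, and the tumor with the highest sum, knockdown replicate 2, also had the highest TAGLN, MYL9, ACTA2 and TPM2. Of the 8 of these markers tested, 2 rose, NOTCH3 (log2 difference 0.88) and RGS5 (0.69), and 1 fell, KCNJ8 (-0.73). These sums include DES, a gene also of skeletal muscle, with means of 17.9 in knockdown and 2.14 in sh-NC tumors (limma adjusted p = 0.0764). The part of host cells in TAGLN was not tested.

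MYL9 (chr2:156775408-156781657) was at 70.6, 55.1 and 89.3 scaled FPKM in bulk sh-NC tumors and at 92.2, 173 and 78.7 in knockdown tumors. ACTA2 (chr19:34240336-34255585) was at 86.7, 107 and 111 and at 110, 220 and 118. Knockdown replicate 2 was the high value of both, and the other knockdown tumors lay within or near the sh-NC range. In knockdown replicate 2 MIR6236 took 74.4% of summed FPKM, and its part in these values was not tested. The log2 differences were 0.61 (SE 0.31, limma adjusted p = 0.185) for MYL9 and 0.49 (SE 0.26, limma adjusted p = 0.210) for ACTA2, and 0.27 and 0.17 without that tumor. CALD1 (chr6:34598495-34775469) was at 155, 129 and 133 in sh-NC tumors and at 147, 149 and 183 in knockdown tumors, a log2 difference of 0.20 (SE 0.13, limma adjusted p = 0.280). TPM1 (chr9:67022590-67049672) was at 441, 363 and 405 and at 352, 374 and 399, a log2 difference of -0.10 (SE 0.12, limma adjusted p = 0.556) that was 0.18 after quantile normalization. CNN1 (chr9:22099221-22109221), below the filter, was at 0.378, 0.728 and 0.629 in sh-NC tumors and at 0.978, 1.89 and 0.845 in knockdown tumors.

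In sorted cells, from which the genes were chosen, VIM, S100A4, MYL9, ACTA2, TPM1 and CALD1 had all 6 knockdown values below all 3 sh-NC values. These are 6 of the 9 genes that passed the filter, beside 9.35% of 11424 genes with that pattern. None of the 9 had all knockdown values above sh-NC, a pattern of 13.6% of genes. Nothing is read from either count, because the rule used this contrast. Across all genes the median log2 difference of the 6 knockdown libraries from sh-NC was 0.01. Markers of host cells that make these proteins were present in all sorted groups. Fibroblast markers summed to 83.1 to 142 scaled FPKM in sh-NC, 78.3 to 118 with sh-B7-H3 (1) and 145 to 202 with sh-B7-H3 (2), with 7 or 8 of the 10 markers at 1 scaled FPKM or more in every library of a group. Macrophage markers summed to 31.0 to 44.4, 68.2 to 95 and 61.6 to 402, the 402 in the library that stood apart. Of the 5 tested in each comparison with sh-NC, CD68 and CSF1R rose and 0 fell. CD68 had means of 29.8, 65.0 and 60.8, while ADGRE1 had 0.0858, 0.228 and 2.81 and MRC1 had 0.184, 0.109 and 1.62. Pericyte and smooth muscle markers summed to 8.32 to 11.8, 6.32 to 14.3 and 10.7 to 12.5. Epithelial sums, given above, were higher in both knockdown groups, and EPCAM rose by 2.73 with sh-B7-H3 (1) and 3.07 with sh-B7-H3 (2) on the log2 scale (limma adjusted p = 9.77e-05 and 7.01e-05). The part of these cell types in the levels below was not tested.

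VIM was at 1522, 1438 and 1239 scaled FPKM in sorted sh-NC cells, at 362, 481 and 559 in cells labelled sh-B7-H3 (1) and at 313, 399 and 404 in cells labelled sh-B7-H3 (2). These are log2 differences of -1.60 (SE 0.22) and -1.91 (SE 0.20). By mean level among all genes it held rank 23 in sorted sh-NC cells, rank 136 with sh-B7-H3 (1) and rank 160 with sh-B7-H3 (2).

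S100A4 was at 290, 517 and 515 scaled FPKM in sorted sh-NC cells, at 78.4, 92.1 and 95 with sh-B7-H3 (1) and at 93.1, 37.1 and 36.9 with sh-B7-H3 (2). The high value of the last group is the library rich in host-cell markers. Log2 differences were -2.26 (SE 0.24) and -3.05 (SE 0.39). Over the 6 knockdown libraries the log2 difference from sh-NC was -2.66, and -2.75 without that library. The difference was as large without it.

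MYL9 was at 58.7, 77.9 and 63.7 scaled FPKM in sorted sh-NC cells, at 24.4, 48.9 and 45.5 with sh-B7-H3 (1) and at 9.81, 9.51 and 9.97 with sh-B7-H3 (2). The shRNAs gave separate levels, with log2 differences of -0.79 (SE 0.26) and -2.65 (SE 0.14). CALD1 had the same order, at 174, 213 and 189, at 104, 132 and 122, and at 68.1, 81.7 and 69.5, with log2 differences of -0.68 (SE 0.16) and -1.38 (SE 0.14). So did ACTA2, at 60.1, 96.5 and 65.8, at 46.0, 53.8 and 49.6, and at 42.2, 29.2 and 28.7, with log2 differences of -0.54 (SE 0.19) and -1.12 (SE 0.22).

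TPM1 was at 423, 515 and 503 scaled FPKM in sorted sh-NC cells, at 307, 315 and 271 with sh-B7-H3 (1) and at 270, 297 and 270 with sh-B7-H3 (2), or log2 differences of -0.69 (SE 0.17) and -0.78 (SE 0.16). The other tropomyosin, TPM2, was at 3.57 to 4.34 in sorted sh-NC cells and at 3.06 to 6.66 in knockdown cells. Its log2 differences were 0.05 (SE 0.24), which was -0.04 at the lowest under the other scalings and filters, and 0.00 (SE 0.13), which was 0.18 with FPKM as deposited and -0.17 after quantile normalization.

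S100A6 was at 977, 1707 and 2108 scaled FPKM in sorted sh-NC cells, at 1320, 1097 and 1077 with sh-B7-H3 (1) and at 1262, 993 and 1104 with sh-B7-H3 (2). The lowest and the highest of these 9 values were both sh-NC libraries, so the groups overlapped, and the log2 differences were -0.39 (SE 0.31) and -0.45 (SE 0.32). TAGLN, low in sorted cells, was at 0.913, 1.42 and 2.32 in sh-NC, at 3.75, 2.11 and 2.58 with sh-B7-H3 (1) and at 8.01, 2.19 and 2.55 with sh-B7-H3 (2). Its highest value is the library rich in host-cell markers, and groups overlapped with and without it. The log2 difference of the 6 knockdown libraries was 0.75, and 0.53 without that library. CNN1 was between 0.0951 and 0.431 in all 9 sorted libraries.

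**Figure D2:**
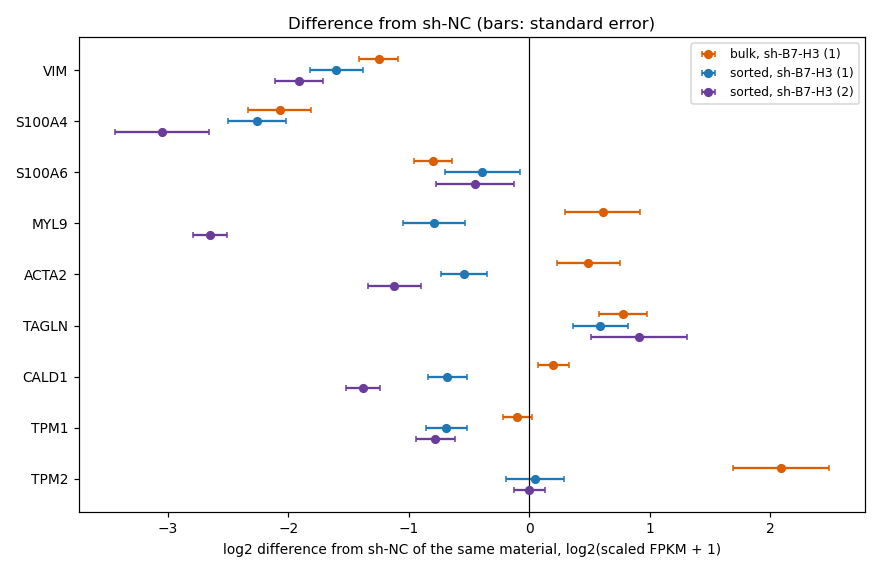
Log2 difference from sh-NC of the same material (x axis, log2(scaled FPKM + 1)) for the 9 genes that passed the filter (y axis), with standard errors as bars. Colors mark the 3 groups labelled sh-B7-H3. VIM and S100A4 lie below 0 in all 3 comparisons, while MYL9, ACTA2 and CALD1 lie above 0 in bulk tumors (0.61, 0.49 and 0.20) and below 0 in sorted cells.

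The levels behind both sorted comparisons share the sh-NC libraries. MYL9, ACTA2 and CALD1 stood on opposite sides of 0 in bulk tumors and in sorted cells with sh-B7-H3 (1), and that difference was not tested. Knockdown values of these genes overlapped sh-NC in bulk tumors.

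Between the shRNAs, MYL9 and CALD1 were higher in sorted cells labelled sh-B7-H3 (1) than in those labelled sh-B7-H3 (2), and 7 of the 9 genes tested did not pass the test. MYL9 differed by 1.86 on the log2 scale (SE 0.24, n = 3 and 3, limma adjusted p = 0.00984) and CALD1 by 0.70 (SE 0.12, n = 3 and 3, limma adjusted p = 0.0307). Their values, given above, did not overlap between the shRNAs. These are 2 of 9 genes called higher, beside 1.76% of 11239 genes, and 0 of 9 were called lower, beside 1.64% of genes. At an unadjusted p below 0.05, 4 were higher and 0 lower, and the share of all genes at that threshold was not computed. CD276 itself was 1.16 lower on the log2 scale with sh-B7-H3 (1) than with sh-B7-H3 (2) (SE 0.20, n = 3 and 3, limma adjusted p = 0.0277). That call was lost with no filter (limma adjusted p = 0.0885) and without sh-B7-H3 (1) replicate 3 (0.0945) or replicate 2 (0.0953) or 3 (0.109) of sh-B7-H3 (2).

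The call of MYL9 was lost with no filter (limma adjusted p = 0.0572) and without sh-B7-H3 (1) replicate 3 (0.0594) or sh-B7-H3 (2) replicate 3 (0.0534). That of CALD1 was lost after quantile normalization (limma adjusted p = 0.0933), with no filter (0.0768), and without replicate 2 or 3 of sh-B7-H3 (1) (0.106 and 0.109) or of sh-B7-H3 (2) (0.0705 and 0.145). With the replicate number as a block, which paired these samples, MYL9 (limma adjusted p = 0.0161) and CALD1 (0.0109) were called and so was VIM, with a log2 difference of 0.32 (SE 0.07, limma adjusted p = 0.0477). In that blocked fit 9.03% of genes were called higher and 7.55% lower.

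ACTA2 was higher with sh-B7-H3 (1) by 0.58 on the log2 scale (SE 0.16, limma adjusted p = 0.0875), with no overlap of libraries. S100A4 was higher by 0.80 (SE 0.33, limma adjusted p = 0.217). Without sh-B7-H3 (2) replicate 1, the library rich in host-cell markers, the log2 difference was 0.76 for ACTA2 (limma adjusted p = 0.00729) and 1.23 for S100A4 (limma adjusted p = 0.00147). Then 4 of the 9 genes were called higher, MYL9, CALD1, ACTA2 and S100A4, beside 3.75% of 11092 genes, and 4.27% of genes were called lower.

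The other genes did not pass the test between the shRNAs, apart from VIM in the blocked fit given above. Log2 differences were 0.32 for VIM (SE 0.18, limma adjusted p = 0.356), and 0.09 for TPM1 (SE 0.11, limma adjusted p = 0.662), which was -0.03 after quantile normalization. S100A6 differed by 0.06 (SE 0.14, limma adjusted p = 0.849), which was -0.12 after quantile normalization, and TPM2 by 0.05 (SE 0.23, limma adjusted p = 0.927). TAGLN differed by -0.32 (SE 0.38, limma adjusted p = 0.660), and by 0.16 without the library rich in host-cell markers. Of 8 fibroblast markers tested between the shRNAs, 3 were called lower with sh-B7-H3 (1), beside 1.64% of all genes, and 0 higher, with a median log2 difference of -0.42. The 3 were the collagens COL1A1, COL1A2 and COL3A1, with log2 differences of -1.60, -1.46 and -1.31 (limma adjusted p = 0.0380, 0.0409 and 0.0192), and without that library they were still called lower. Their part in the values above was not tested.

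Bulk tumors and sorted cells of the same shRNA are set side by side as a description. In sh-NC, bulk exceeded sorted values without overlap for TAGLN, by 2.44 on the log2 scale, and for CNN1, by 0.47, and CALD1 was 0.46 lower in bulk on the log2 scale. VIM, S100A4, S100A6, MYL9, ACTA2, TPM1 and TPM2 overlapped. With sh-B7-H3 (1), TAGLN, TPM2, ACTA2, MYL9, CNN1, CALD1 and TPM1 were higher in bulk without overlap. The share of all genes with that pattern was not computed, so nothing is read from their number. The differences on the log2 scale were 2.63 for TAGLN, 1.88 for TPM2, 1.49 for ACTA2, 1.48 for MYL9, 0.89 for CNN1, 0.42 for CALD1 and 0.34 for TPM1. S100A6 was lower in bulk, with a log2 difference of -0.69, and VIM (0.12) and S100A4 (-0.09) overlapped.

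**Figure D3:**
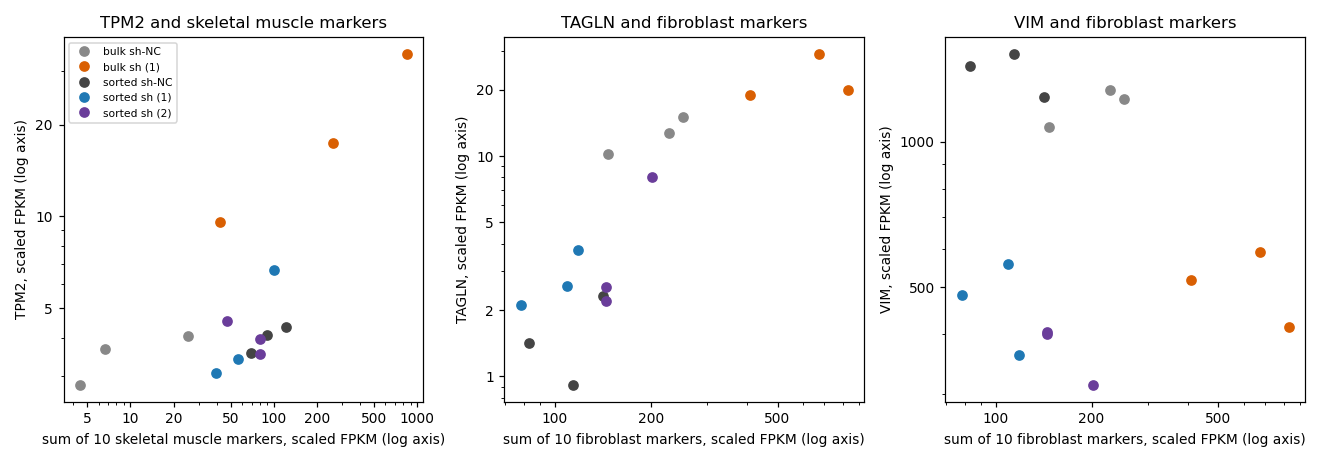
Levels of TPM2, TAGLN and VIM in scaled FPKM (y axes) against summed marker levels in scaled FPKM (x axes), all on log axes, with 1 point per library and colors for the 5 groups. The 3 bulk tumors labelled sh-B7-H3 (1) hold both the highest TPM2 (9.57 to 34.2) and muscle marker sums up to 849. They also hold low VIM and the highest fibroblast marker sums (411 to 831). The part of host cells in these levels was not tested.

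The order of levels within a group can be read on the FPKM scale. In sorted sh-NC cells S100A6 (mean 1597) and VIM (1400) led and overlapped, followed by TPM1 (480) and S100A4 (441), which overlapped, CALD1 (192), ACTA2 (74.1) and MYL9 (66.8), which overlapped, TPM2 (4.0), TAGLN (1.55) and CNN1 (0.136). In sorted cells with sh-B7-H3 (2), VIM (372) lay below S100A6 (1120) without overlap, S100A4 (55.7) overlapped CALD1 (73.1) and ACTA2 (33.3), and MYL9 (9.76) lay below ACTA2 without overlap. In bulk sh-NC tumors the 3 leading genes had the same order as in sorted sh-NC cells.

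Across all 15 libraries VIM and S100A4 had a Pearson correlation of log2 values of 0.91, with 0.89 over the 9 sorted and 0.96 over the 6 bulk libraries. MYL9 and ACTA2 had 0.91, with 0.90 and 0.88. VIM and MYL9 had 0.82 over the sorted libraries and -0.47 over the bulk libraries. For VIM with S100A4 or MYL9, values that include the sorted libraries restate the choice of these genes. TAGLN and CNN1 had 0.92, with 0.80 and 0.97, and TAGLN and TPM2 had 0.95 over the bulk libraries. Libraries of 1 group share their shRNA and material, so these values describe mostly the group levels.

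Of 11595 genes outside the set whose mean reached 1 scaled FPKM, those whose pattern over the 15 libraries was most like VIM were CALU (0.98), PKM (0.97) and GALNT2 (0.97). PKM, a pyruvate kinase of glycolysis, had means of 1074 and 467 scaled FPKM in bulk sh-NC and sh-B7-H3 (1) tumors, and of 1037, 475 and 401 in the 3 sorted groups, sh-NC first and sh-B7-H3 (2) last. Most like S100A4 were GADD45A (0.97), H1F0 (0.96) and TSPAN15 (0.96). GADD45A, a stress-response gene, had means of 147 and 88.3 in bulk tumors and of 159, 89.2 and 74.6 in sorted cells. Most like MYL9 were MXRA7 (0.97), DBN1 (0.97) and SPARC (0.93), of which DBN1, drebrin, binds actin and SPARC is a secreted matrix protein. SPARC had means of 565 and 484 in bulk tumors and of 474, 246 and 141 in sorted cells, and its correlation with MYL9 was 0.33 over the bulk libraries. Most like ACTA2 were GJC1 (0.92), YPEL3 (0.90) and PDLIM7 (0.89). Their correlations with ACTA2 were 0.92, 0.83 and 0.63 over the sorted libraries and 0.47, 0.47 and 0.81 over the bulk libraries. These rankings include the sorted libraries on which VIM, S100A4 and MYL9 were chosen.

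Genes related to the set were examined in 5 lists. In bulk tumors, where 12.8% of all genes were called higher and 8.52% lower, 2 of 15 actin and myosin paralogs rose, the non-muscle myosins MYH14 (log2 difference 1.5, limma adjusted p = 0.00648) and MYH10 (0.61, limma adjusted p = 0.00728), and 0 fell. That share of paralogs called higher is near the share of all genes. ACTA1, skeletal muscle actin, was at a mean of 97.2 against 4.31 scaled FPKM, a log2 difference of 3.53 that did not pass (limma adjusted p = 0.0516). Among 12 contraction regulators, myosin light chain kinase MYLK rose by 1.34 (limma adjusted p = 0.00365) and the myosin phosphatase inhibitor PPP1R14A fell by 1.42 (limma adjusted p = 0.0251). Among 17 genes of actin crosslinking and adhesion, CSRP2 (1.03) and PALLD (0.80) rose and CSRP1 fell by 0.57 on the log2 scale. Median log2 differences of these 3 lists were -0.08, 0.18 and 0.03.

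Of 10 S100 genes tested in bulk tumors, 2 rose and 4 fell, beside 12.8% and 8.52% of all genes, with a median log2 difference of -0.16 beside 0.02 over all genes. S100A14, of epithelia, rose by 2.01 on the log2 scale (limma adjusted p = 0.00372), while S100A8 and S100A9, of neutrophils and monocytes, fell, with log2 differences of -1.38 (limma adjusted p = 0.0185) and -1.36 (limma adjusted p = 0.0104). The neighbors of vimentin by structure, 5 other non-keratin intermediate filament genes past the filter, gave 0 calls by limma (2 higher and 2 lower at an unadjusted p below 0.05) with a median log2 difference of -0.03. The stem cell filament nestin (NES) was at a mean of 39.6 against 62.5 scaled FPKM (log2 difference -0.68, limma adjusted p = 0.0600).

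In sorted cells, genes of these lists were outside the selection and were tested. Comparing sh-B7-H3 (1) with sh-NC, 4.38% of 11163 genes were called lower and 9.03% higher. NES fell by 1.58 on the log2 scale (limma adjusted p = 0.0133), as 1 of 5 filament genes, and 0 rose. Of 17 crosslinking and adhesion genes 3 fell, namely PALLD (-1.22), TGFB1I1 (-1.03) and vinculin, VCL (-0.82), and 0 rose, with a median log2 difference of -0.35 beside 0.00 over all genes. MYH14 (1.15) rose and calponin 3, CNN3 (-0.61), fell among 14 paralogs, and PPP1R14A fell (-1.17) as 1 of 12 regulators. S100A14 rose by 3.14 (limma adjusted p = 0.000266) as 1 of 8 S100 genes, and 0 fell.

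For sh-B7-H3 (2) relative to sh-NC, 7.44% of 11243 genes were called lower and 11.7% higher. NES fell by 1.84 (limma adjusted p = 0.00190), MYH14 rose by 1.48 and CNN3 fell by 0.68. CSRP1 (-0.97), TGFB1I1 (-0.92) and PDLIM5 (-0.59) fell among 17 crosslinking genes. MYLK rose by 0.67 and PPP1R14A fell by 1.26 among 12 regulators, and S100A14 (2.10), S100G (1.14) and S100A16 (0.97) rose among 7 S100 genes. Without the library rich in host-cell markers, where 5.07% of genes were called lower and 7.38% higher, NES, MYH14, S100A14 and the 3 crosslinking genes were still called, and CNN3, MYLK, PPP1R14A, S100G and S100A16 were not. Both comparisons share the sh-NC libraries.

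Between the shRNAs, the actin and myosin paralogs, contraction regulators, S100 genes and other filament genes had 0 calls by limma among 14, 12, 7 and 5 tested. At an unadjusted p below 0.05, 1 paralog and 1 regulator were lower, 1 S100 gene was higher and 1 lower, and 0 filament genes differed. With the replicate block, MYH10 and MKL2 fell, 1 S100 gene rose and 1 fell, and 0 filament genes were called. Without the library rich in host-cell markers, S100A14 was called higher with sh-B7-H3 (1), with a log2 difference of 1.31, against 1.04 with it (limma adjusted p = 0.0620), and the other 3 of these lists had 0 calls by limma.

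**Figure D4:**
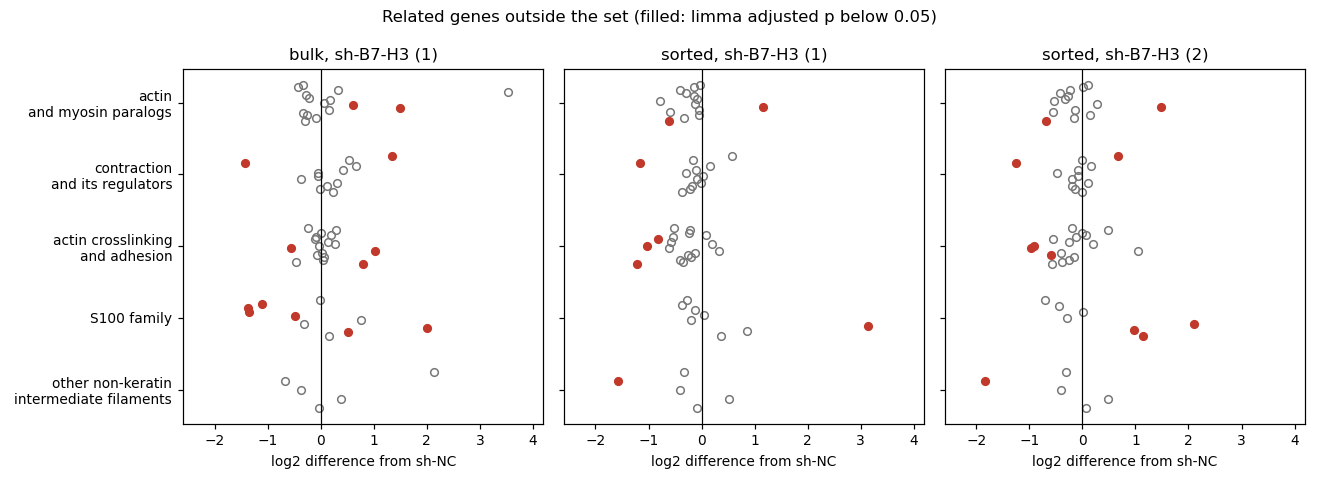
Log2 difference from sh-NC (x axis) of genes in 5 related lists (y axis), with 1 point per gene past the filter and 1 panel per comparison. Filled points have a limma adjusted p below 0.05. S100A14 lies farthest right among filled points in all 3 panels, and NES farthest left in both sorted panels.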

How the data were processed

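RNA-seq libraries were prepared by the study from oligo-dT-captured mRNA (the paper names a KAPA kit, the labels an Illumina stranded kit), and the VIPER pipeline is named for the differential expression analysis. The build is mm10 per the submitters' processing notes, while aligner and annotation are not given in the sources used here. The authors deposited FPKM values for 24917 entries in a table named for counts. The authors' smaller table gives log2(FPKM + 1) for 1000 genes, 4 of them in this set, and served as a check (999 matched, largest difference 8.91e-08).

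Entries with date-like symbols (26) were dropped. Each library was scaled by a median-ratio factor (0.650 to 1.18), computed from 9872 genes that reached 1 FPKM throughout. Log2 values with a pseudocount of 1 were compared in R 4.3.3 by limma 3.58.1, using its trend option, within each pair of groups, for genes with at least 1 scaled FPKM in 3 libraries, with Benjamini-Hochberg adjustment over the genes tested. The fit was tested on simulated data. Groups came from the sample titles. Members and lists were chosen with earlier results of these data known. Genes named outside the set are, per list and comparison, at most 3 past the threshold with the largest absolute difference, and the 3 genes most correlated with VIM, S100A4, MYL9 or ACTA2. ACTA1, NES in bulk tumors, and MYH10 and MKL2 in the blocked fit were named after their values were seen. The result of 1 gene is not reported here.

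Same-numbered replicates of the 2 shRNA groups in sorted cells deviated together (correlations 0.32, 0.33 and 0.36, each best with its own number), a pairing that comes from the data and not from a statement in the labels. Their blocked values therefore stand beside the results. Alternatives were FPKM as deposited, quantile normalization, a pseudocount of 0.1, no filter, 1 FPKM in every library, a replicate block, all groups together, and leaving out each library.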

Additional observations from a re-analysis of the deposited data

Results flagged for a closer look

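In sorted cells, the level of MYL9 differed between the shRNAs by 1.86 on the log2 scale, and that of CALD1 by 0.70, both higher with sh-B7-H3 (1). Both were picked out because the difference between the shRNAs was itself tested with limma and passed the threshold (adjusted p = 0.00984 and 0.0307, 3 of 3 libraries higher in each).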

How the results depend on the processing

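FPKM as deposited gave 961 called genes in bulk tumors against 2520, and 3 genes of this set against 5. Leaving out 1 library gave 546 to 3793 genes, and 2 to 5 genes of this set. The highest gene count came without sh-B7-H3 (1) replicate 2 and the lowest without its replicate 1, and 2 genes of this set remained called without sh-NC replicate 3 (VIM and S100A4). A replicate block gave 1413 genes there, where same-numbered samples did not deviate together (correlations 0.41, 0.00 and -0.46). Between the shRNAs, 382 genes were called, 137 with no filter, 1864 with the replicate block and 35 to 890 with 1 library left out. Of this set 2 genes were called, 1 after quantile normalization, 0 with no filter and 0 to 4 with 1 library left out. Against sorted sh-NC, the block gave 915 genes for sh-B7-H3 (1) against 1497 and 1395 for sh-B7-H3 (2) against 2150, and leaving out 1 library gave 722 to 1948 and 962 to 3614. Numbers did not pair those samples. Apart from the changes given in the report, the block changed the call of no gene of this set between the shRNAs or in bulk tumors.

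Signs turned for values near 0. TPM1 was 0.18 in bulk tumors after quantile normalization, and CD276, at -0.07, ran from -0.16 to 0.05 with 1 library left out. Between the shRNAs, S100A6 was -0.12 and TPM1 was -0.03 after quantile normalization. With 1 library left out, S100A6 ran from -0.04 to 0.15, TPM2 from -0.24 (without sh-B7-H3 (1) replicate 2) to 0.22, and TAGLN from -0.59 to 0.16 (without sh-B7-H3 (2) replicate 1). The cause was not tested. The share of calls that were higher moved with scaling: in bulk tumors 60.1%, 70.2% with FPKM as deposited and 46.5% after quantile normalization, with sh-B7-H3 (1) in sorted cells 67.3%, 84.2% and 57.4%, and with sh-B7-H3 (2) 61.1%, 83.2% and 50.0%. FPKM as deposited moved the median of all genes in these sorted comparisons to 0.17 and 0.21. Read depth is not known, which limits what can be said of CNN1 and of TAGLN in sorted cells.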
